A study of Mus musculus with 32 samples.

Results

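The 34 imprinted genes described here are mouse genes known to be expressed mainly from 1 parental chromosome, matched by symbol through their Entrez gene identifiers. They make up 34 of the 20612 genes listed in at least 1 library of the series. By the literature, 19 of them are expressed from the paternal allele, 12 from the maternal allele and 3 (Grb10, Ube3a and Gnas) from an allele that depends on the tissue, and they lie at 15 loci. RNA was sequenced from J1 mouse embryonic stem cells (ESCs, strain 129S4/SvJae) that were differentiated along a pair of branches. Global differentiation as embryoid bodies (EBs, free-floating aggregates of differentiating stem cells) was sampled as ESCs and at EB days 4, 6, 9, 12 and 20. Neural differentiation shared the ESC and EB day 4 samples and was sampled as retinoic acid EBs at day 8 (RA EBs) and as neural progenitor cultures at day 10 (NPCs). At each of these 8 stages 1 culture was exposed to 100 nM bisphenol A (BPA), 1 to 100 nM bisphenol F (BPF), 1 to 100 nM bisphenol S (BPS) and 1 to DMSO, the solvent, which gives 32 libraries. Every group shares the same cell line and the same genotype, and the labels give no replicate culture of any stage and treatment.

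Genomic imprinting is a form of gene regulation in which DNA methylation, laid down in the egg or the sperm at imprinting control regions, silences the gene copy from 1 parent, in all tissues for some genes and in certain tissues for others. Imprinted genes lie in clusters, where an untranslated RNA from 1 chromosome often accompanies silencing of protein-coding neighbours on the same chromosome. Many of them control growth of the embryo and placenta, and several are abundant in the developing brain. J1 is an inbred line, so its parental chromosomes carry no sequence differences by which reads could be assigned, and the deposited values are sums over both alleles. Nothing below measures imprinting itself.

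Levels are given as deposited, in FPKM (fragments scaled to transcript length and to the library's total), as a mean ± SD over the 4 treatments of a stage (n = 4), with a gene not listed in a library set to 0. The libraries held between 9574833 and 11070149 expected counts, and 30 of the 34 genes were listed in all 32 libraries. Differences between stages are log2 changes with their standard error from the edgeR quasi-likelihood test, with p-values adjusted by Benjamini-Hochberg over all 15632 genes tested, and a gene was called between stages at an adjusted p below 0.05 and a log2 change of at least 1 in either direction. All 34 genes passed the filter on low counts. Slc22a18 passed only through the early stages where it is highest. It held 118 expected counts over the ESC libraries, 51 at EB day 4 and 1 to 34 at each later stage. Its calls as lower between later stages carry that limit. Since no group has labelled replicates, these p-values measure the spread between libraries of different treatment or stage. The tissue in each sample is a mixture, so fewer cells of a type and less RNA per cell cannot be told apart. The labelled states were checked against marker lists: the summed level of 8 pluripotency markers was 14.6 to 21.4 FPKM in NPCs and 4553 to 4902 FPKM in ESCs, while 8 neuronal markers summed to 2352 to 2564 FPKM in NPCs and 27.4 to 29.1 FPKM at EB day 4. The neuronal list also summed to 202 to 217 FPKM in ESCs. A list of 8 neural progenitor markers summed to 407 to 492 FPKM in NPCs and 250 to 270 FPKM in ESCs, so its sum alone does not mark the NPC state. The DMSO libraries of EB days 12 and 20 stood apart: 8 mesenchyme markers summed to 476 (BPA), 516 (BPF) and 493 (BPS) against 40.3 (DMSO) FPKM at EB day 12, and to 1160, 1354 and 1316 against 137 FPKM in the same order at EB day 20.

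Together the 34 genes took a growing share of the RNA as the cells left the stem cell state. They held 0.151% ± 0.00597 of all expected counts in ESCs, 0.308% ± 0.0159 at EB day 4, 0.734% ± 0.0254 at EB day 6, 1.30% ± 0.195 at EB day 9, 1.15% ± 0.203 at EB day 12 and 1.67% ± 0.115 at EB day 20 (SD, n = 4 each). On the neural branch the share was 0.775% ± 0.0594 in RA EBs and 1.22% ± 0.0526 in NPCs. A few abundant genes weigh most in these sums. At EB day 20 Igf2 alone held 0.323% of all expected counts and H19 0.274%. Over the 4 libraries of that stage Nnat had more expected counts than Igf2 (135230 against 126420). The highest stage mean fell at EB day 20 for 13 genes, in ESCs for 7, at EB day 9 for 5, in NPCs for 5, at EB day 12 for 2, at EB day 4 for 1 and in RA EBs for 1. These ranks are by FPKM and some depend on the scale. By TPM, which is FPKM brought to the same total in every library, Kcnq1ot1 and Ube3a were highest in NPCs. Igf2r was then highest at EB day 9 and Sgce at EB day 20. Libraries of the highest and the next stage often overlapped. Of the 13 genes highest at EB day 20, only Meg3, Rian, Ndn and Mkrn3 had every library above those of the next stage. Igf2 was as low as 348 FPKM at EB day 20 and as high as 803 FPKM at EB day 9. In at least 1 stage 25 of the genes reached a mean of 10 FPKM and 10 reached 100 FPKM. Rtl1, a retrotransposon-derived gene needed for placental vessels, was the 1 gene that stayed under 1 FPKM in all 8 stage means.

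**Figure D1:**
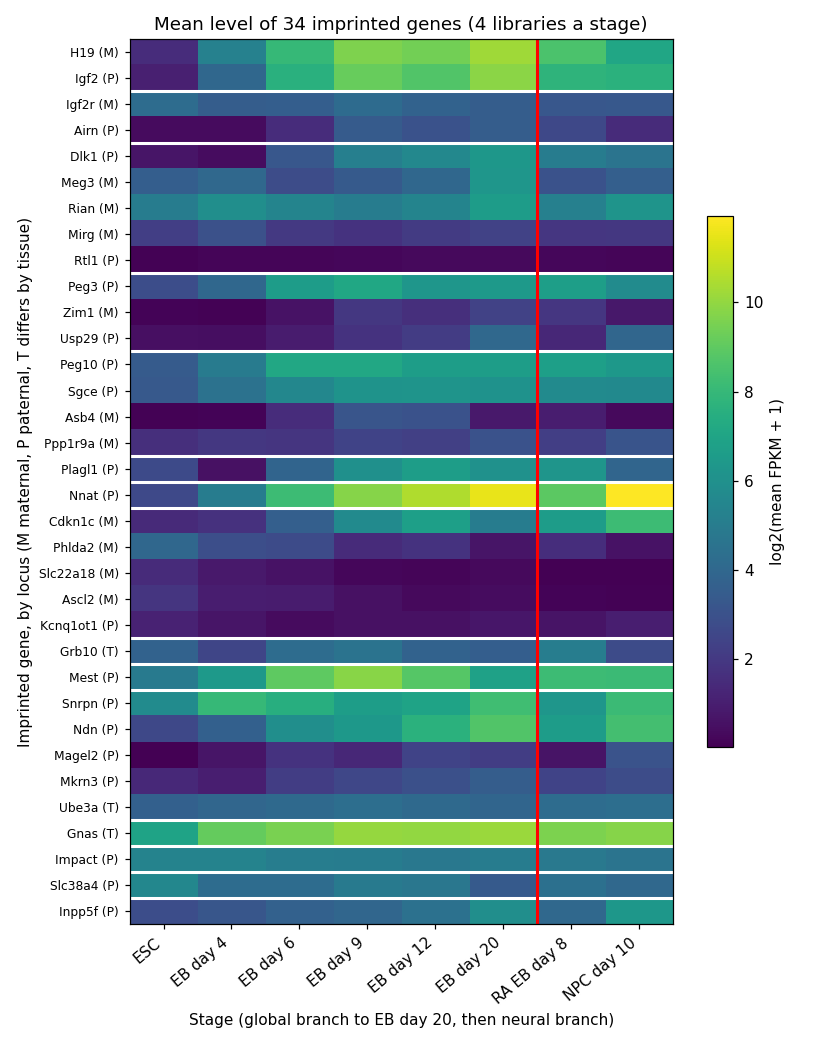
Mean level of each of the 34 imprinted genes (rows, grouped by locus) at each of the 8 stages (columns); colour gives log2(mean FPKM + 1) over the 4 treatments. Most rows brighten to the right of ESCs, with Nnat, H19, Gnas and Igf2 brightest, while Slc22a18, Ascl2 and Phlda2 are brightest in ESCs.

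At the H19/Igf2 locus (H19 at chr7:142575530-142578146 and Igf2 at chr7:142650768-142666816), both genes rose together after the stem cell state. H19 is a maternally expressed untranslated RNA, and Igf2 encodes the paternally expressed insulin-like growth factor 2, a fetal growth factor. In mouse tissues they share enhancers. H19 measured 1.93 ± 0.536 FPKM in ESCs, 37.6 ± 7.78 at EB day 4, 256 ± 28.1 at EB day 6, 786 ± 235 at EB day 9, 669 ± 279 at EB day 12 and 1197 ± 169 at EB day 20. On the neural branch H19 measured 374 ± 31.4 FPKM in RA EBs and 132 ± 34.5 in NPCs. Igf2 measured 15.2 ± 0.638 FPKM at EB day 4, 194 ± 22.4 at EB day 6, 576 ± 188 at EB day 9, 413 ± 217 at EB day 12 and 925 ± 399 at EB day 20, with 219 ± 39.6 in RA EBs. Its ESC libraries held 0.81 to 1.28 FPKM and its NPC libraries 136 to 309 FPKM. Across the 8 stage means, which share their libraries, log2(FPKM + 1) of the pair ran together (Pearson r = 0.985, Spearman rho = 0.976).

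Igf2r (chr17:12682406-12769706) encodes the receptor that removes IGF2 and is expressed from the maternal allele in most mouse tissues, whereas Airn (chr17:12741311-12859884) is the paternal antisense RNA that starts inside it. Igf2r was 1 of 4 genes called in none of the 7 steps between successive stages, with stage means of 8.58 to 17.6 FPKM. Airn averaged 0.292 ± 0.124 FPKM in ESCs and 0.295 ± 0.262 at EB day 4, then 1.90 ± 0.719 at EB day 6, 10.0 ± 2.98 at EB day 9, 7.18 ± 2.56 at EB day 12 and 10.5 ± 1.94 at EB day 20. RA EBs held 5.11 ± 0.336 FPKM of Airn and NPCs 1.79 ± 0.568. The mean ratio of Airn to Igf2r was 1.04 at EB day 20, against 0.0164 in ESCs, with no parallel course of the pair over the 8 stage means (Pearson r = −0.02, Spearman rho = 0). By library the EB day 20 ratio was 0.917 (BPA), 0.883 (BPF) and 0.706 (BPS) against 1.66 (DMSO). Whether the counting used strand is not given in the sources used here, so reads of Airn and Igf2r cannot be told apart where they overlap. The deposited length of Airn also varied between libraries, from 586 to 1176 bases, which scales its FPKM. The pair is shown here because its starts differ in base composition, with 27 CpG dinucleotides in the 250 bases before the RefSeq start of Igf2r and 2 before that of Airn (GRCm38.p6, each read 5′ to 3′ on its gene's strand, CpG in capitals; Igf2r at chr17:12769707-12769956 on the minus strand, Airn at chr17:12741061-12741310 on the plus strand):
Igf2r: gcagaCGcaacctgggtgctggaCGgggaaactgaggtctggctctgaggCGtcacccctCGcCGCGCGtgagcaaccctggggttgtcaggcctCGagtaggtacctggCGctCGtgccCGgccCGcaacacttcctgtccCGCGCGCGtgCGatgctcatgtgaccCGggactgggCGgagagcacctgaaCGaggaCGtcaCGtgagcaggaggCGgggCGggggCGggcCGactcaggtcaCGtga
Airn: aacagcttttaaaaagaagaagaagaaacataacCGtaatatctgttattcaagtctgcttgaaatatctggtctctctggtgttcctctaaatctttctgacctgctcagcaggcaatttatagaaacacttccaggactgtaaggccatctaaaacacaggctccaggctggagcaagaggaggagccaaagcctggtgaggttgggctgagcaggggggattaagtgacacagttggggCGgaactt

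The Dlk1/Meg3 locus on chromosome 12 pairs paternally expressed protein-coding genes with maternally expressed untranslated RNAs. Dlk1 (chr12:109452485-109463336), a Notch-related membrane protein of progenitor cells, measured 0.603 ± 0.108 FPKM in ESCs, 0.318 ± 0.0506 at EB day 4, 8.42 ± 2.10 at EB day 6, 34.6 ± 3.74 at EB day 9, 46.6 ± 18.8 at EB day 12 and 78.6 ± 34.1 at EB day 20. RA EBs held 31.4 ± 6.37 FPKM of Dlk1 and NPCs 23.5 ± 7.63. The maternal RNAs did not follow that course. Meg3 (chr12:109540996-109571729) was already present in ESCs at 11.0 ± 1.70 FPKM, measured between 5.90 and 15.5 FPKM as a mean at EB days 4 to 12, and averaged 77.1 ± 35.5 FPKM at EB day 20, with 7.18 ± 2.12 in RA EBs and 11.3 ± 3.60 in NPCs. Rian, which lies downstream and hosts small nucleolar RNAs, held 31.2 ± 3.79 FPKM in ESCs, 59.7 ± 15.5 at EB day 4, 40.9 ± 2.96 at EB day 6, 31.1 ± 2.58 at EB day 9, 40.8 ± 5.39 at EB day 12, 96.2 ± 10.9 at EB day 20, 35.7 ± 6.18 in RA EBs and 73.1 ± 2.02 in NPCs. Mirg, a host of miRNAs, stayed between 2.40 and 6.82 FPKM. Between the start of Meg3 and the end of Mirg the RefSeq annotation places 57 miRNA genes, of which 10 lie inside Mirg and 3 inside Rian. Over the 8 stage means Meg3 ran closer to Rian (Pearson r = 0.743, Spearman rho = 0.595) than to Dlk1 (Pearson r = 0.319, Spearman rho = 0.238). The deposited length of Meg3 followed the stage: it was 5847 to 7033 bases in the 4 NPC libraries and 2689 to 3962 bases in all others, which scales the NPC level down. The expected counts of Meg3 were 477 to 904 in the NPC libraries, against 219 to 368 in the RA EB libraries. Rtl1 lies antisense to RNA of the maternal chromosome, and its reads carry that uncertainty.

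The stretches before Meg3 and Plagl1 are shown because they hold TGCCGC, a sequence bound by the imprint-maintaining protein ZFP57 when it is methylated. On either strand, TGCCGC occurs in 9 of 45 RefSeq promoter windows of 28 of the 34 genes (20%), each of 250 bases before and 50 after a start, against 11.6% of 32851 windows over all genes, and 2 of the 9 are windows of Mest that start 3 bases apart. The motif GGGGCCCC, bound by PLAGL1, occurs in 3 of the 45 windows (6.67%) against 1.08% of all windows, and 2 of these 3 windows overlap, those of Peg3 and Usp29. The median window of the imprinted genes holds 11 CpG against 7 over all genes, with a GC content of 55.7% against 52.7%. A match is a description of the letters and no measurement of binding. The 250 bases before the starts of Meg3 (chr12:109540746-109540995) and Plagl1 (chr10:13090582-13090831), both on the plus strand of GRCm38.p6 with CpG in capitals, hold 10 and 19 CpG:
Meg3: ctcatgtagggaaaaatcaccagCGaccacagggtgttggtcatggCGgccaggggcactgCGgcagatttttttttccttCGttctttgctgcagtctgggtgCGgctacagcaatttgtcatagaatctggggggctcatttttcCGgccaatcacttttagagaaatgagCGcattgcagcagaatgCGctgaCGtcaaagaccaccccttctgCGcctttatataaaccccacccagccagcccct
Plagl1: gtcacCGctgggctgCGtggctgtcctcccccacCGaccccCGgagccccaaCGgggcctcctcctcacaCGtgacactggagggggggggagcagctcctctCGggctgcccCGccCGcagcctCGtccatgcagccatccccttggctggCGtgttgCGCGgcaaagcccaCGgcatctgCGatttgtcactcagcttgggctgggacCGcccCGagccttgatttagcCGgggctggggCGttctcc

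At the Peg3 locus (chromosome 7), a pair of genes that start 96 bases apart had different courses. Peg3 (chr7:6703892-6730462), a paternally expressed zinc finger protein, measured 6.21 ± 0.482 FPKM in ESCs, 15.2 ± 2.75 at EB day 4, 97.8 ± 28.7 at EB day 6, 136 ± 48.6 at EB day 9, 77.0 ± 30.6 at EB day 12 and 83.9 ± 16.6 at EB day 20. Its neural levels were 102 ± 6.69 FPKM in RA EBs and 54.2 ± 5.39 in NPCs. Usp29 (chr7:6730559-6967220), a ubiquitin-specific protease read in the other direction, measured 0.407 ± 0.0921 FPKM in ESCs, 0.393 ± 0.0386 at EB day 4, 0.905 ± 0.352 at EB day 6, 2.44 ± 0.404 at EB day 9, 3.35 ± 0.210 at EB day 12 and 15.5 ± 1.40 at EB day 20, with 1.57 ± 0.0359 in RA EBs and 14.6 ± 1.44 in NPCs. The mean ratio of Usp29 to Peg3 was 0.00901 at EB day 6, 0.193 at EB day 20, 0.0155 in RA EBs and 0.272 in NPCs. Zim1, the maternally expressed zinc finger gene next to Peg3, stayed at or below 4.26 FPKM in every stage mean and was highest at EB day 20. The 96 bases between the starts of Peg3 and Usp29 (chr7:6730463-6730558, plus strand, CpG in capitals) hold 3 CpG:
Peg3 to Usp29: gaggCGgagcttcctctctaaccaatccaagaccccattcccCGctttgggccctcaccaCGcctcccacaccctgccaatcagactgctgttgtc

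**Figure D2:**
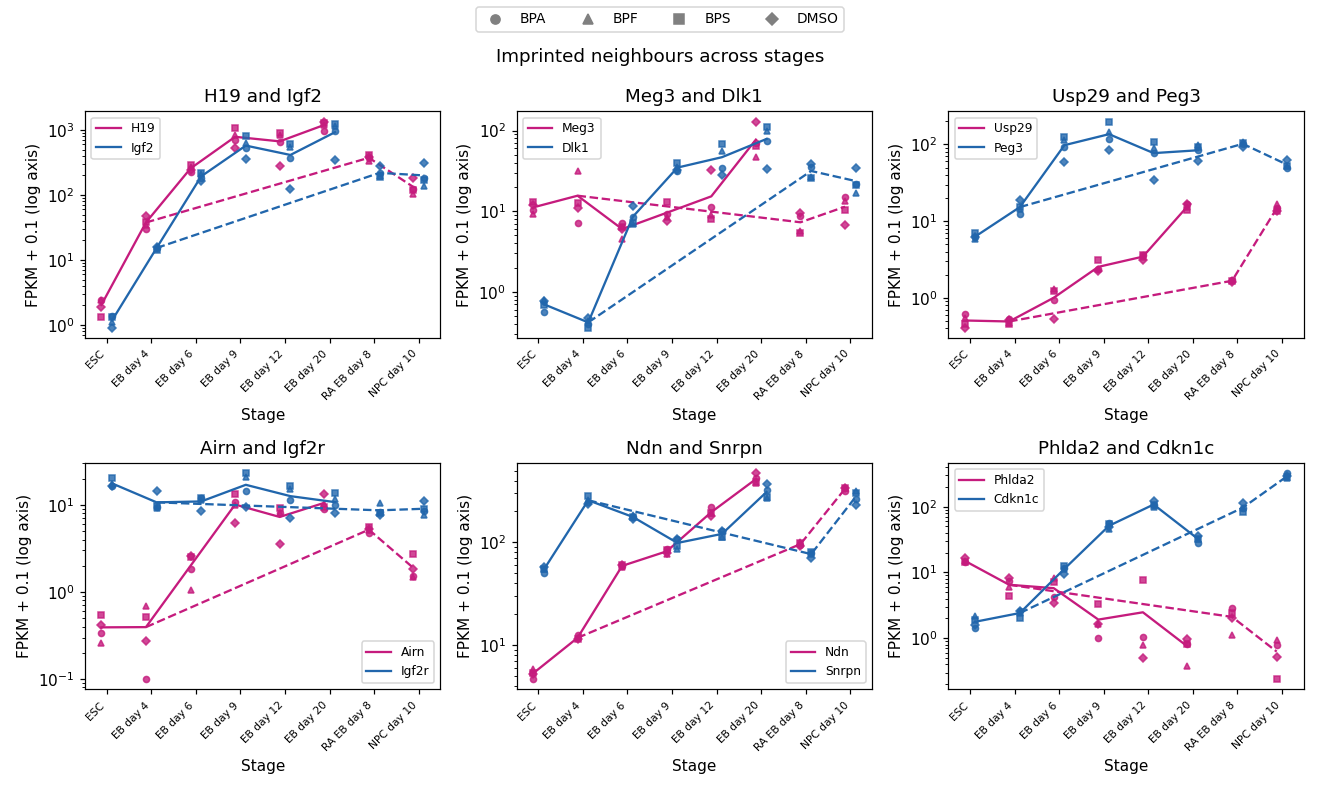
Levels of neighbouring imprinted genes in FPKM (log axis, 0.1 FPKM added) over the stages; solid lines follow the mean of the global branch, dashed lines the mean from EB day 4 through RA EBs to NPCs, and markers give the 4 treatments. H19 and Igf2 run in parallel, Airn is higher after EB day 4 while Igf2r has no called step, Meg3 and Dlk1 follow different courses, and Usp29 is highest at EB day 20 and in NPCs, where Peg3 is not.

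At the Peg10/Sgce locus (chromosome 6), the paternal genes, which have neighbouring starts, rose early. Peg10, a retrotransposon-derived gene needed for the placenta, measured 9.76 ± 0.550 FPKM in ESCs, 30.4 ± 5.17 at EB day 4 and 144 ± 10.9 at EB day 6, and 81.0 to 144 FPKM as a mean at the later stages. Sgce, which encodes epsilon-sarcoglycan, measured 9.35 ± 0.752 FPKM in ESCs, 22.0 ± 1.09 at EB day 4 and 45.5 ± 3.59 at EB day 6, and was highest at EB day 12 with 72.1 ± 6.55 FPKM. The maternal genes of the locus were scarcer. Asb4, a ubiquitin ligase adaptor, was detected above 5 FPKM as a mean at EB days 9 (8.07 ± 1.83) and 12 (7.09 ± 2.17), and Ppp1r9a, a neuronal actin-binding protein, was highest at EB day 20 (7.17 ± 0.200) and in NPCs (7.80 ± 0.521).

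The highest stage mean of the 34 genes belonged to Nnat (chr2:157560078-157562525), which encodes neuronatin, a small membrane protein of developing neurons. It measured 5.30 ± 0.650 FPKM in ESCs, 31.5 ± 3.63 at EB day 4, 293 ± 88.5 at EB day 6, 864 ± 43.1 at EB day 9, 1450 ± 158 at EB day 12 and 2945 ± 398 at EB day 20. RA EBs held 484 ± 19.7 FPKM of Nnat and NPCs 3916 ± 179. In ESCs, at EB days 4, 6 and 9 and in RA EBs the mean of Gnas was higher than that of Nnat. Plagl1 (chr10:13090832-13131694), a zinc finger regulator of growth, moved in both directions. It held 5.50 ± 0.126 FPKM in ESCs, 0.477 ± 0.0403 at EB day 4, 13.8 ± 1.69 at EB day 6, 64.0 ± 8.40 at EB day 9, 99.4 ± 15.7 at EB day 12, 64.6 ± 15.7 at EB day 20, 74.3 ± 16.7 in RA EBs and 14.0 ± 1.81 in NPCs. The highest EB day 4 library (0.52 FPKM) lay below the lowest ESC library (5.32 FPKM).

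The Kcnq1ot1/Cdkn1c locus (chromosome 7) held genes with opposite courses. Cdkn1c, the maternally expressed cell cycle inhibitor p57, measured 1.68 ± 0.344 FPKM in ESCs, 2.32 ± 0.291 at EB day 4, 11.3 ± 1.28 at EB day 6, 51.2 ± 5.27 at EB day 9, 108 ± 8.95 at EB day 12 and 32.1 ± 3.02 at EB day 20. Higher levels than at EB day 20 were measured in RA EBs (96.4 ± 11.9) and NPCs (292 ± 21.3). The other maternal genes of the cluster, known mostly from the placenta, were highest in ESCs. Phlda2, which restrains placental growth, measured 15.0 ± 1.09 FPKM in ESCs, 6.40 ± 1.66 at EB day 4, 5.67 ± 2.30 at EB day 6 and 1.82 ± 1.01 at EB day 9, with 0.650 ± 0.258 at EB day 20 and 0.527 ± 0.314 in NPCs. Ascl2, a trophoblast transcription factor, averaged 2.63 ± 0.149 FPKM in ESCs, and Slc22a18, a transporter, 1.80 ± 0.581. Both stayed at or below 1 FPKM in every later stage mean. Over the 8 stage means Cdkn1c and Phlda2 ran in opposite directions (Pearson r = −0.862, Spearman rho = −0.762). Kcnq1ot1, the paternal antisense RNA of the cluster, measured 1.23 ± 0.115 FPKM in ESCs, 0.295 ± 0.0370 at EB day 6 and 1.03 ± 0.0635 in NPCs, with the same limit on strand as Airn.

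At the Snrpn/Ube3a locus (chromosome 7), the region of the Prader-Willi and Angelman syndromes in humans, 4 paternal genes had different courses. Snrpn, a splicing protein of the brain that shares transcripts with Snurf, measured 53.9 ± 2.81 FPKM in ESCs, 257 ± 19.8 at EB day 4, 177 ± 5.15 at EB day 6, 98.5 ± 10.8 at EB day 9, 121 ± 8.56 at EB day 12, 310 ± 45.3 at EB day 20, 76.6 ± 4.46 in RA EBs and 278 ± 38.4 in NPCs. Ndn, which encodes necdin, a growth suppressor of neurons, measured 5.16 ± 0.488 FPKM in ESCs, 11.6 ± 0.493 at EB day 4, 58.8 ± 1.49 at EB day 6, 81.6 ± 4.04 at EB day 9, 197 ± 17.0 at EB day 12, 414 ± 43.5 at EB day 20, 96.0 ± 4.14 in RA EBs and 333 ± 9.38 in NPCs. The mean ratio of Ndn to Snrpn was 1.63 at EB day 12, against 0.0454 at EB day 4. Magel2, a necdin relative, was highest in NPCs (7.29 ± 0.907 FPKM), and Mkrn3, a ring finger protein, was highest at EB day 20 (10.8 ± 0.781 FPKM). Ube3a, the ubiquitin ligase that neurons express from the maternal allele, kept stage means of 11.7 to 19.2 FPKM and was called in no step.

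Among the genes that stand alone in this set, Mest, a paternally expressed hydrolase of embryonic mesoderm, measured 29.4 ± 1.82 FPKM in ESCs, 85.7 ± 5.14 at EB day 4, 499 ± 160 at EB day 6, 899 ± 58.9 at EB day 9, 440 ± 53.0 at EB day 12 and 114 ± 31.6 at EB day 20, with 291 ± 53.4 in RA EBs and 280 ± 39.6 in NPCs. Gnas, which encodes the stimulatory G protein alpha subunit, measured 123 ± 2.36 FPKM in ESCs, 558 ± 23.5 at EB day 4 and 755 ± 19.6 at EB day 6, and 765 to 1116 FPKM as a mean at the later stages. Grb10, an adaptor that restrains insulin signalling, measured 12.5 ± 0.541 FPKM in ESCs, 4.73 ± 0.773 at EB day 4, 18.0 ± 1.87 at EB day 6, 22.8 ± 2.94 at EB day 9, 12.5 ± 3.08 at EB day 12, 11.0 ± 0.941 at EB day 20, 32.9 ± 5.25 in RA EBs and 5.67 ± 0.543 in NPCs. Slc38a4, an amino acid transporter of the placenta, was highest in ESCs (45.6 ± 1.83 FPKM) and had stage means of 9.66 to 29.7 FPKM later. Impact, a regulator of translation, kept stage means of 23.4 to 40.4 FPKM and was called in no step. Inpp5f, a phosphoinositide phosphatase, measured 6.25 ± 0.575 FPKM in ESCs, 20.9 ± 1.50 at EB day 12, 58.6 ± 7.09 at EB day 20 and 79.8 ± 6.61 in NPCs. The Gnas and Inpp5f values are sums over all transcripts of the gene, including those that are not imprinted.

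At EB day 4 against ESCs, 11 of the 34 genes rose and 6 fell, against 14.3% and 13.4% of all genes tested. The median log2 change was 0.48 over the 34 genes and 0.00 over all genes. By expressed allele, 9 of 19 paternal genes rose and 2 fell, while 1 of 12 maternal genes (H19) rose and 3 fell. H19 rose by 4.26 ± 0.32 (log2, SE; adjusted p = 3.1e-12), Igf2 by 4.04 ± 0.46, Nnat by 2.57 ± 0.19, Snrpn by 2.27 ± 0.11 and Gnas by 2.19 ± 0.05. Smaller rises were called for Peg10 (1.65), Mest (1.55), Peg3 (1.32), Sgce (1.24) and Ndn (1.18), and for Magel2, which stayed under 1 FPKM. Plagl1 fell by 3.47 ± 0.21 (adjusted p = 4.6e-14), and the other genes that fell were Grb10 (−1.39), Slc38a4 (−1.34), Ascl2 (−1.34), Phlda2 (−1.18) and Slc22a18 (−1.06). The Phlda2 call was lost without the BPF libraries (−1.11, adjusted p = 0.064), and that of Slc22a18 without the BPA, BPF or BPS libraries, with DESeq2 (adjusted p = 0.086), with no filter (adjusted p = 0.056) and with limma (−0.61). Ascl2 was under the threshold with limma (−0.86). Pluripotency markers summed to 1440 to 1663 FPKM at EB day 4 and 4553 to 4902 FPKM in ESCs, and their part in the result was not tested.

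EB day 6 against EB day 4 was the step in which the largest number of these genes rose among those of the global branch, with 17 higher and 3 lower against 10.5% and 8.55% of all genes, and a median log2 change of 1.06 against 0.00. The genes that rose included 12 of 19 paternal and 4 of 12 maternal genes. Plagl1 rose by 4.76 ± 0.20 (adjusted p = 1.1e-16), Dlk1 by 4.61 ± 0.45, Asb4 by 3.91 ± 0.32, Igf2 by 3.56 ± 0.36, Nnat by 3.17 ± 0.16 and H19 by 2.72 ± 0.25. Changes of 1.12 to 2.68 were called for Airn, Peg3, Mest, Zim1, Ndn, Cdkn1c, Peg10, Grb10, Magel2, Mkrn3 and Usp29. Kcnq1ot1 (−1.12), Meg3 (−1.55) and Mirg (−1.18) fell, but the calls of Meg3 (−0.90, adjusted p = 0.059) and Mirg (−0.79) were lost without the BPF libraries. Mirg was also under the threshold with limma (−0.88). Zim1, Usp29 and Kcnq1ot1 had means under 1 FPKM at both stages. Mesenchyme markers summed to 53.8 to 122 FPKM at EB day 6 and 3.38 to 6.36 FPKM at EB day 4, and pluripotency markers to 293 to 337 FPKM at EB day 6 and 1440 to 1663 FPKM at EB day 4, and their part in the result was not tested. The BPF library at EB day 4 held 31.4 FPKM of Meg3, against 7.01 (BPA), 12.6 (BPS) and 10.8 (DMSO).

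At EB day 9 against EB day 6, 10 genes rose and 2 fell (10.5% and 3.86% of all genes, median 0.48 against 0.03). Zim1 rose by 2.33 ± 0.26, Plagl1 by 2.14 ± 0.14, Cdkn1c by 2.11 ± 0.10 and Asb4 by 2.01 ± 0.20, followed by Airn (1.99), Dlk1 (1.96), H19 (1.54), Nnat (1.49), Igf2 (1.46) and Usp29 (1.36). The maternal placental genes Phlda2 (−1.66) and Slc22a18 (−1.36) fell, with Phlda2 lost without the BPF libraries (−1.37), and Usp29 was under the threshold with limma (0.86). Slc22a18 had a mean under 1 FPKM at both stages. Neuronal markers summed to 140 to 275 FPKM at EB day 9 and 39.8 to 52.8 FPKM at EB day 6, and mesenchyme markers to 210 to 280 FPKM and 53.8 to 122 FPKM in the same order. At EB day 12 against EB day 9, 3 genes rose and 1 fell (7.33% and 2.26% of all genes, median −0.07 against −0.01). Those were Magel2 (1.47 ± 0.19), Ndn (1.23 ± 0.07) and Cdkn1c (1.04 ± 0.09), and Mest (−1.06 ± 0.17). Without the DMSO libraries Cdkn1c (0.99) and Mest (−0.94) were under the threshold of 1 and no longer called, which left 2 genes higher and 0 lower. The next gene by p, Grb10, had a change of −0.91 and was not called. Neuronal markers summed to 558 to 808 FPKM at EB day 12 and 140 to 275 FPKM at EB day 9, and the part of the markers in either step was not tested.

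Late in the global branch, at EB day 20 against EB day 12, 6 of the genes rose and 5 fell (17.4% and 8.62% of all genes, median 0.26 against 0.00). Meg3 rose by 2.45 ± 0.36 (adjusted p = 7.8e-07), Usp29 by 2.11 ± 0.14, Inpp5f by 1.38 ± 0.08, Snrpn by 1.26 ± 0.11, Rian by 1.13 ± 0.13 and Igf2 by 1.03 ± 0.32. Asb4 fell by 3.15 ± 0.23, Mest by 2.07 ± 0.17, Cdkn1c by 1.85 ± 0.09, Phlda2 by 1.64 ± 0.60 and Slc38a4 by 1.48 ± 0.34. The Igf2 change was 0.96 without the BPA libraries and 0.99 without the DMSO libraries, and that of Phlda2 was −0.18 without the BPS libraries, since the BPS library at EB day 12 held 7.47 FPKM against 0.41 to 0.96 in the others. Without the DMSO libraries, which stood apart at both stages, 5 genes rose and 5 fell. The Phlda2 call was also lost with limma (−0.62). Glial markers summed to 376 to 396 FPKM at EB day 20 and 6.29 to 10.2 FPKM at EB day 12. The mesenchyme list summed to 1160 to 1354 FPKM in the bisphenol libraries and 137 FPKM in the DMSO library at EB day 20, against 476 to 516 FPKM and 40.3 FPKM at EB day 12. The sum of the neuronal markers was 1232 to 1603 FPKM at EB day 20 and 558 to 808 FPKM at EB day 12. The part of these markers in the result was not tested.

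**Figure D3:**
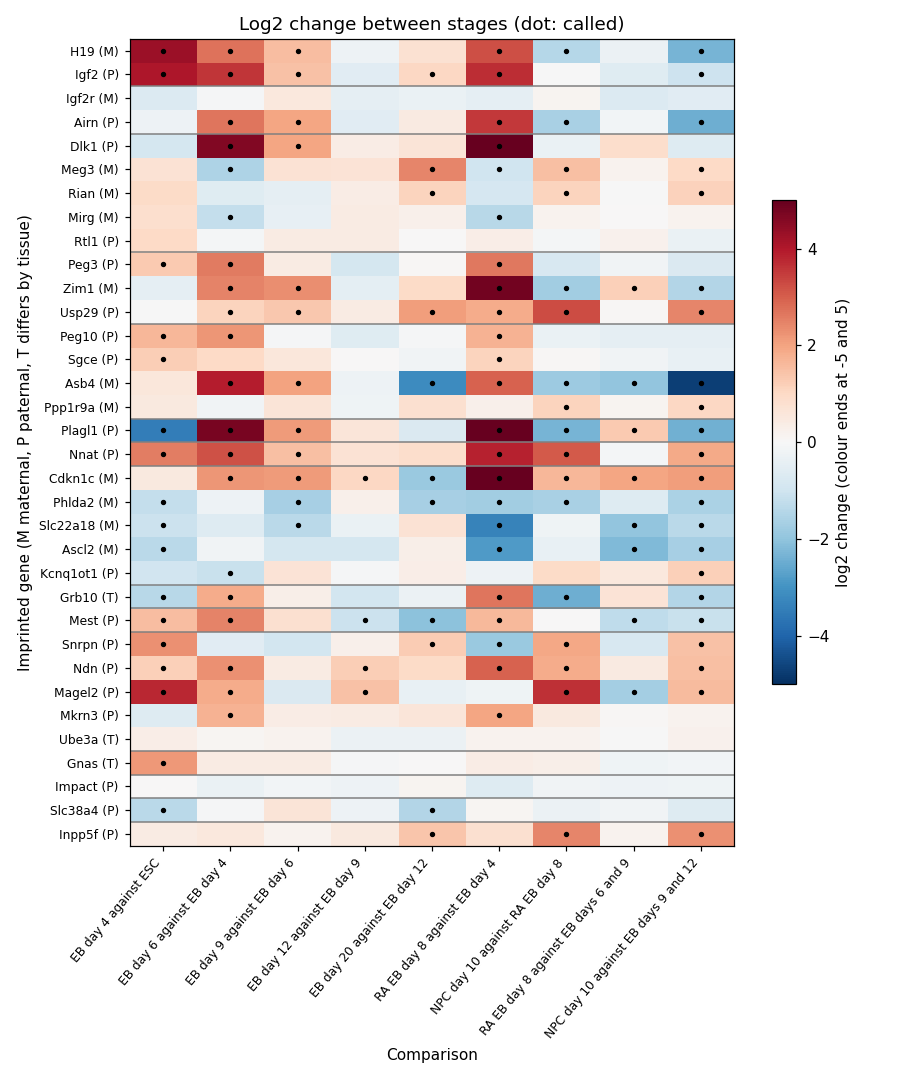
Log2 change of each imprinted gene (rows, by locus) in 9 comparisons between stages (columns), later or neural stage over earlier or global stage, from the edgeR fit; the colour scale ends at −5 and 5 and a dot marks a called gene. The columns EB day 6 against EB day 4 and RA EB day 8 against EB day 4 hold 17 higher genes each, and EB day 12 against EB day 9 holds 3.

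On the neural branch, RA EB day 8 against EB day 4 gave 17 genes that rose and 6 that fell (18.8% and 15.5% of all genes, median 0.97 against 0.03), with 12 of 19 paternal and 4 of 12 maternal genes higher and 1 paternal and 5 maternal genes lower. Plagl1 rose by 7.12 ± 0.20 (adjusted p = 3e-21), Dlk1 by 6.45 ± 0.42, Cdkn1c by 5.24 ± 0.12, Zim1 by 4.82 ± 0.35, Nnat by 3.83 ± 0.16, Igf2 by 3.70 ± 0.36, Airn by 3.54 ± 0.41 and H19 by 3.21 ± 0.25. Asb4, Ndn, Grb10, Peg3, Mkrn3, Usp29, Peg10, Mest and Sgce also rose, by 1.12 to 2.94. Slc22a18 fell by 3.32 ± 0.61, Ascl2 by 2.82 ± 0.46, Snrpn by 1.84 ± 0.11 and Phlda2 by 1.75 ± 0.47. Slc22a18, Ascl2 and Asb4 had means under 1 FPKM at both stages. Slc22a18 and Ascl2 held 2 and 7 expected counts over all RA EB libraries. Over all EB day 4 libraries Airn held 9 expected counts, Zim1 10 and Asb4 13. Mirg (−1.38) and Meg3 (−1.01) were lower too, and the Meg3 call was lost without the BPF (−0.38) or BPS (−0.98) libraries, with limma (−0.84) and with no treatment term (−0.99). Mirg was also under the threshold with limma (−0.98). Neuronal markers summed to 295 to 362 FPKM in RA EBs and 27.4 to 29.1 FPKM at EB day 4, and pluripotency markers to 12.3 to 23.8 FPKM in RA EBs and 1440 to 1663 FPKM at EB day 4. Their part in the result was not tested.

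In NPCs against RA EBs, 10 genes rose and 7 fell (17.9% and 17.0% of all genes, median 0.03 against −0.01). Magel2 rose by 3.66 ± 0.21, Usp29 by 3.28 ± 0.15, Nnat by 3.07 ± 0.15, Inpp5f by 2.44 ± 0.08 (adjusted p = 1.8e-19), Snrpn by 1.94 ± 0.11, Ndn by 1.87 ± 0.08, Cdkn1c by 1.67 ± 0.09, Meg3 by 1.52 ± 0.37, Ppp1r9a by 1.13 ± 0.13 and Rian by 1.12 ± 0.13. Grb10 fell by 2.45 ± 0.14, Plagl1 by 2.33 ± 0.14, Asb4 by 1.83 ± 0.30, Zim1 by 1.75 ± 0.25, Airn by 1.62 ± 0.33, Phlda2 by 1.62 ± 0.63 and H19 by 1.41 ± 0.23. Of these, Asb4 had means under 1 FPKM at both stages. Rian was just short of the threshold without the BPF libraries and with upper-quartile scaling (0.99), and Phlda2 (−1.55) was no longer called without the BPA libraries. With limma on log2(FPKM + 1), a scale that understates changes of low genes, Ppp1r9a (0.89) and Phlda2 (−0.97) were not called. Meg3 was not called with limma either (0.57, adjusted p = 0.18), with means of 7.18 FPKM in RA EBs and 11.3 FPKM in NPCs. Its deposited length, by which FPKM but not expected counts are scaled, was 3474 to 3931 bases in RA EBs. In NPCs it was 5847 to 7033 bases, and the part of length in the Meg3 change was not tested. The neuronal marker sum was 2352 to 2564 FPKM in NPCs and 295 to 362 FPKM in RA EBs, and the mesenchyme marker sum was 171 to 413 FPKM in NPCs and 16.6 to 22.9 FPKM in RA EBs. The part of either list in the result was not tested.

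Set against global EBs of similar age, RA EBs (day 8 against the mean of EB days 6 and 9) had 3 of the genes higher and 5 lower (8.11% and 10.1% of all genes, median −0.11 against −0.01). Cdkn1c was higher by 1.97 ± 0.08, Plagl1 by 1.29 ± 0.11 and Zim1 by 1.19 ± 0.20. The lower genes were Ascl2 (−2.19 ± 0.44), Slc22a18 (−1.98 ± 0.61), Asb4 (−1.97 ± 0.20), Magel2 (−1.70 ± 0.20) and Mest (−1.26 ± 0.15). Of these, Ascl2 and Slc22a18 had means under 1 FPKM at all of these stages. With limma, Zim1 (0.66) and Magel2 (−0.89) were under the threshold. Neuronal markers summed to 295 to 362 FPKM in RA EBs, against 39.8 to 52.8 FPKM at EB day 6 and 140 to 275 FPKM at EB day 9. Mesenchyme markers summed to 16.6 to 22.9 FPKM in RA EBs, against 53.8 to 122 FPKM and 210 to 280 FPKM at those days, and the part of both lists was not tested. NPCs (day 10 against the mean of EB days 9 and 12) differed more, with 11 higher and 11 lower (16.1% and 22.1% of all genes, median −0.36 against −0.07). The higher genes were Usp29 (2.44 ± 0.11), Inpp5f (2.29 ± 0.07), Cdkn1c (2.07 ± 0.07), Nnat (1.88 ± 0.12), Magel2 (1.60 ± 0.15), Ndn (1.50 ± 0.06), Snrpn (1.46 ± 0.09), Kcnq1ot1 (1.17 ± 0.13), Rian (1.14 ± 0.11), Ppp1r9a (1.05 ± 0.11) and Meg3 (1.01 ± 0.30). Asb4 differed by −4.69 ± 0.25, Airn by −2.46 ± 0.30, Plagl1 by −2.41 ± 0.13 and H19 by −2.32 ± 0.22, and changes of −1.03 to −1.68 were called for Ascl2, Phlda2, Zim1, Grb10, Slc22a18, Mest and Igf2. Ascl2 and Slc22a18 had means under 1 FPKM at these stages too. The Igf2 call was lost without the BPA, BPF (−0.75) or BPS (−0.73) libraries, the Meg3 call without the BPA (0.81) or BPF (0.87) libraries, and the Phlda2 call without the BPS libraries (−0.40). The Meg3 call was also lost with upper-quartile scaling (0.87), with the minimum raised to 5 CPM (0.97) and with no treatment term (0.96), and its sign turned with limma (−0.0081). With limma, Kcnq1ot1 (0.45), Ppp1r9a (0.81), Zim1 (−0.92) and Phlda2 (−0.79) were under the threshold, as were Ppp1r9a with upper-quartile scaling (0.91) and Igf2 with DESeq2 (−0.99). Without the DMSO libraries 11 genes were higher and 12 lower. Neuronal markers summed to 2352 to 2564 FPKM in NPCs, against 140 to 275 FPKM at EB day 9 and 558 to 808 FPKM at EB day 12. The mesenchyme sum was 171 to 413 FPKM in NPCs, against 210 to 280 FPKM at EB day 9 and 40.3 to 516 FPKM at EB day 12. The part of these markers in the result was not tested.

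Averaged over all 8 stages, no imprinted gene passed an adjusted p of 0.05 for BPA, BPF or BPS against DMSO in the edgeR quasi-likelihood test, where 0.166%, 0.992% and 1.15% of all genes did. At an unadjusted p below 0.05 there were 2, 4 and 4 of the 34 genes, and 1611, 2199 and 2577 of all 15632 genes. DESeq2 called 0 of the 34 for each compound. The genes with the smallest p for BPA were Zim1 (log2 change 0.46, adjusted p = 0.42), Asb4 (0.38), Kcnq1ot1 (−0.21), Usp29 (0.17) and Inpp5f (−0.08). For BPF they were Zim1 (0.69, adjusted p = 0.093), Kcnq1ot1 (−0.31), Peg3 (0.37), Asb4 (0.42) and Igf2r (0.28). For BPS they were Peg3 (0.51, adjusted p = 0.07), Zim1 (0.67, adjusted p = 0.077), Asb4 (0.52), Igf2r (0.37) and Kcnq1ot1 (−0.22).

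With the 3 bisphenols taken as 1 class, Zim1 alone of the 34 was called (0.61 ± 0.17, adjusted p = 0.043), against 2.73% of all genes. Zim1 held 2.50 (BPA), 3.66 (BPF) and 4.09 (BPS) against 1.27 (DMSO) FPKM at EB day 9, and 1.95, 2.63 and 2.78 against 0.92 FPKM in the same order at EB day 12. At EB day 20 it held 4.48, 5.67 and 4.10 against 2.80 FPKM, and in NPCs 0.65, 0.71 and 0.73 against 0.92 FPKM. The bisphenol libraries lay above the DMSO library at those 3 global stages and below it in NPCs. The call was lost with DESeq2 (adjusted p = 0.056), with limma on log2(FPKM + 1) (adjusted p = 0.11) and without the libraries of EB day 4, 6, 9, 12 or 20. The next genes, Peg3 (0.36, adjusted p = 0.11), Asb4 (0.44), Kcnq1ot1 (−0.25) and Igf2r (0.25), did not pass.

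The 3 bisphenols, which differ in the group that bridges their phenol rings, were compared pairwise at the same dose and stages. None of the 34 genes was called in any of the 3 pairs, where the shares of all genes called were 0.0% (BPA against BPF), 0.0064% (BPA against BPS) and 0.0% (BPS against BPF). An unadjusted p below 0.05 was reached by 0, 2 and 0 of the 34, and by 336, 1075 and 266 of all 15632 genes. DESeq2 called 0 of the 34 in each pair. Between BPA and BPF the smallest p belonged to Peg10, with a log2 difference of −0.22 (95% interval −0.47 to 0.03), followed by Peg3 (−0.19), Igf2r (−0.19), Zim1 (−0.23) and Mkrn3 (0.10). Between BPA and BPS, Peg3 differed by −0.33 (−0.63 to −0.03) and Peg10 by −0.27 (−0.51 to −0.02), with adjusted p of 0.66 and 0.68, and Igf2r (−0.28), H19 (−0.31) and Airn (−0.37) came next. Between BPS and BPF the genes were Plagl1 (0.16), Phlda2 (0.51, −0.20 to 1.22), Ascl2 (0.41), Airn (0.31) and Rtl1 (0.38). These intervals allow differences in either direction for most of the named genes and do not show that the compounds act alike.

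**Figure D4:**
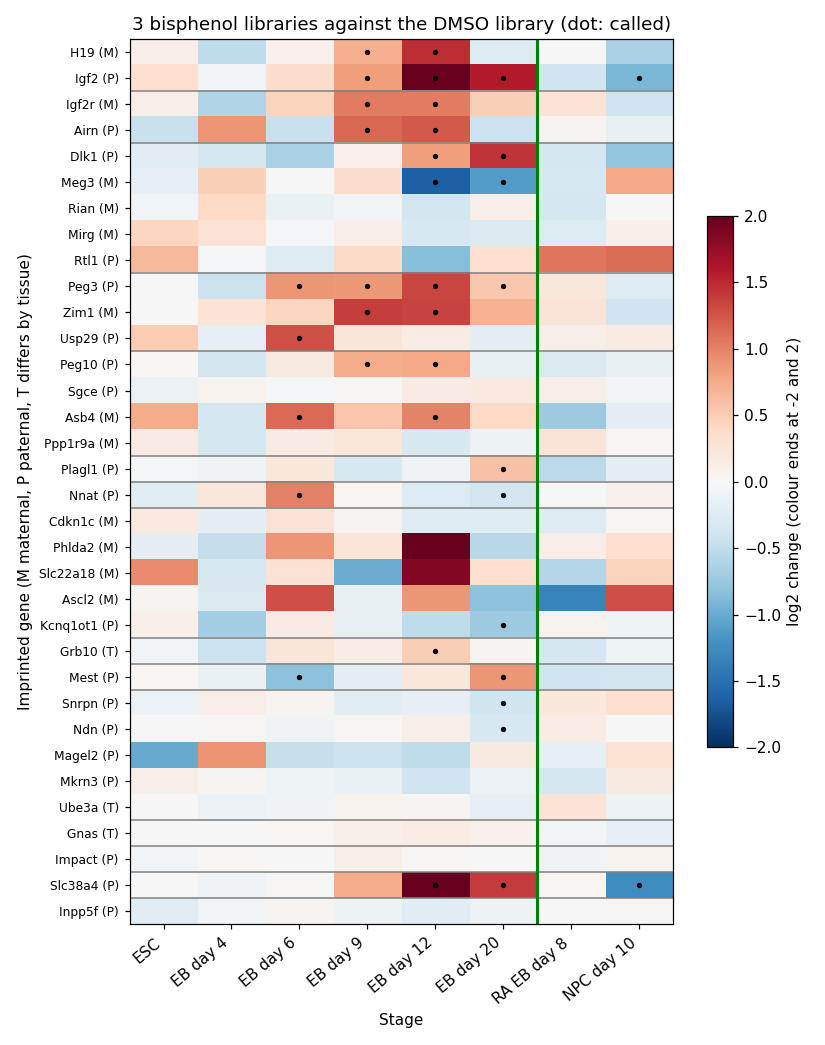
Log2 change of each imprinted gene (rows, by locus), mean of the 3 bisphenol libraries over the 1 DMSO library, at each of the 8 stages (columns), from the edgeR fit of stage by class; the colour scale ends at −2 and 2 and a dot marks an adjusted p below 0.05. Called genes number 12 at EB day 12 and 11 at EB day 20, and 0 in ESCs, at EB day 4 and in RA EBs.

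The bisphenol class was also tested stage by stage, on the assumption that the 1 DMSO library of a stage varies as much as the others do. In ESCs none was called (0.0% of all genes), and DESeq2 called 0. An unadjusted p below 0.05 was reached by 0 of the 34 and by 257 of all 15632 genes. At EB day 4 none was called either (0.563% of all genes), and DESeq2 called 1 of the 34. An unadjusted p below 0.05 was reached there by 7 of the 34 and by 1345 of all 15632 genes. The smallest p values belonged to Kcnq1ot1 (−0.68, adjusted p = 0.081), Igf2r (−0.61), Magel2 (0.90), H19 (−0.50) and Grb10 (−0.43).

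Among EB day 6 cultures 5 of the genes were called, against 2.55% of all genes. Nnat held 312 (BPA), 331 (BPF) and 366 (BPS) against 165 (DMSO) FPKM and was higher by 1.01 ± 0.13 (adjusted p = 1.7e-05). Mest held 470, 362 and 434 against 729 FPKM in the same order and was lower, with a log2 difference of −0.81 ± 0.11 (adjusted p = 6.9e-05). Usp29 (1.28 ± 0.26), Asb4 (1.13 ± 0.25) and Peg3 (0.88 ± 0.20) were higher, with Peg3 and Asb4 lost without the BPF libraries. Usp29 had a stage mean of 0.905 FPKM, and its call was not followed in the alternative runs. Mesenchyme markers summed to 53.8 to 72.7 FPKM in the bisphenol libraries and 122 FPKM in the DMSO library, with 3 of 8 lower, and neural progenitor markers to 137 to 155 against 191 FPKM, with 3 of 8 lower. Their part in the result was not tested.

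At EB day 9, 7 of the genes were called, all higher in the bisphenol class, against 7.49% of all genes. These were Zim1 (1.38 ± 0.31), Airn (1.16 ± 0.35), Igf2r (1.04 ± 0.21, adjusted p = 0.0021), Peg3 (0.86 ± 0.20), Igf2 (0.84 ± 0.21), Peg10 (0.74 ± 0.22) and H19 (0.72 ± 0.21). Igf2r held 14.4 (BPA), 20.9 (BPF) and 23.1 (BPS) against 9.37 (DMSO) FPKM, and Peg3 116, 147 and 198 against 83.4 FPKM in the same order. Airn, H19, Igf2 and Peg10 were lost without the BPF or the BPS libraries, Peg3 without BPF and Zim1 without BPS. Airn, Peg10 and H19 were also lost with DESeq2 (adjusted p = 0.064, 0.051 and 0.095) and with limma (adjusted p = 0.086, 0.062 and 0.073). Mesenchyme markers summed to 239 to 280 against 210 FPKM (6 of 8 higher, 1 lower) and endothelial markers to 16.3 to 61.4 against 7.17 FPKM (6 of 8 higher). Neural progenitor markers summed to 208 to 254 against 356 FPKM (7 of 8 lower) and neuronal markers to 140 to 202 against 275 FPKM (6 of 8 lower). Their part in the result was not tested.

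By EB day 12, 11 of the genes were higher and 1 was lower in the bisphenol class, against 18.9% of all genes called in either direction. Slc38a4 held 21.8 (BPA), 34.6 (BPF) and 39.0 (BPS) against 7.31 (DMSO) FPKM, a difference of 2.07 ± 0.29 (adjusted p = 1.1e-05). Igf2 held 371, 541 and 614 against 126 FPKM in the same order and differed by 2.05 ± 0.23 (adjusted p = 5.2e-07). H19 held 662, 831 and 903 against 279 FPKM and differed by 1.47 ± 0.22. In each of these genes every bisphenol library lay above the DMSO library. Zim1 (1.35), Peg3 (1.34), Airn (1.22), Igf2r (1.02), Asb4 (0.99), Dlk1 (0.83), Peg10 (0.76) and Grb10 (0.49) were also higher, with Airn, Dlk1, Peg10 and Grb10 lost without the BPF or the BPS libraries and Grb10 also with limma (adjusted p = 0.068). Meg3 was lower, with a difference of −1.64 ± 0.36 (adjusted p = 0.0021), with 11.2, 8.74 and 8.00 against 32.7 FPKM. The DMSO library held 1058 expected counts of Meg3, against 397 (BPA), 337 (BPF) and 319 (BPS) in the others.

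Cell type markers of EB day 12 also differed between the bisphenol libraries and that same DMSO library. Mesenchyme markers were higher in 8 of 8, cardiac muscle markers in 7 of 8 (30.0 to 273 against 2.76 FPKM) and endothelial markers in 6 of 8 (15.2 to 34.1 against 4.02 FPKM). Neural progenitor markers were lower in 7 of 8 (539 to 616 against 838 FPKM) and neuronal markers in 5 of 8 (558 to 692 against 808 FPKM). Of the markers tested, 2 of 4 erythroid and 2 of 7 visceral endoderm and liver markers were higher, and 2 of 7 glial markers were lower. No marker of the mesenchyme list was at 0 in all libraries of the stage. The part of these markers in the result was not tested.

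At EB day 20, 6 of the genes were higher and 5 lower, against 19.6% of all genes. Igf2 held 973 (BPA), 1147 (BPF) and 1231 (BPS) against 348 (DMSO) FPKM and was higher by 1.58 ± 0.22 (adjusted p = 1.2e-05). Dlk1 held 73.7, 97.3 and 111 against 32.8 FPKM in the same order and was higher by 1.45 ± 0.25. Slc38a4 held 11.0, 12.4 and 11.1 against 4.17 FPKM and was higher by 1.40 ± 0.33. Mest (0.88 ± 0.13), Plagl1 (0.59 ± 0.16) and Peg3 (0.55 ± 0.19) were higher too. Meg3 held 69.2, 46.8 and 63.9 against 128 FPKM and was lower, with a difference of −1.12 ± 0.32. Kcnq1ot1 (−0.73), Snrpn (−0.40), Nnat (−0.37) and Ndn (−0.32) were also lower. Kcnq1ot1 had a stage mean of 0.67 FPKM, and its call was not followed in the alternative runs. Snrpn and Ndn were lost without the BPF or the BPS libraries, and Nnat, Peg3 and Plagl1 without the BPF libraries. The Meg3 call was lost with DESeq2 (adjusted p = 0.12) and limma (adjusted p = 0.092), that of Peg3 with DESeq2 (adjusted p = 0.068), and those of Nnat and Ndn with limma and with upper-quartile scaling. Mesenchyme markers were higher in 7 of 8 and neuronal markers lower in 4 of 8 (1232 to 1460 against 1603 FPKM). Neural progenitor markers were not lower as a list at EB day 20. Their sum was 320 to 382 FPKM in the bisphenol libraries against 280 FPKM in the DMSO library, with 2 of 8 higher and 1 lower. The part of these markers in the result was not tested.

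H19 did not move with Igf2 at EB day 20. It held 956 (BPA), 1212 (BPF) and 1279 (BPS) against 1340 (DMSO) FPKM, all 3 bisphenol libraries below the DMSO library, so the ratio of H19 to Igf2 was 0.983, 1.06 and 1.04 against 3.85. At EB day 12 that ratio was 1.78, 1.53 and 1.47 against 2.22, and in NPCs 0.677, 0.758 and 0.704 against 0.591. The ratio of Meg3 to Dlk1 at EB day 20 was 0.939, 0.481 and 0.578 against 3.92.

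**Figure D5:**
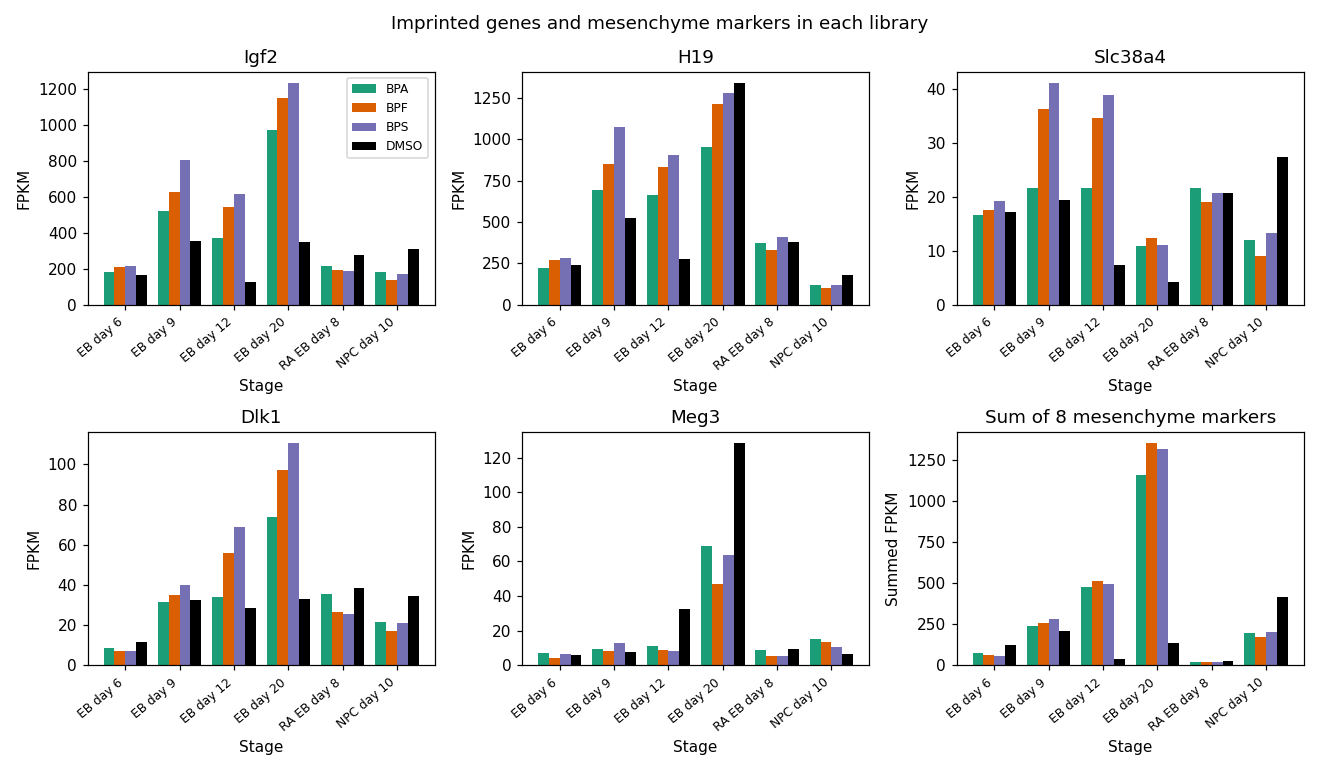
Levels in FPKM of Igf2, H19, Slc38a4, Dlk1 and Meg3, and the summed level of 8 mesenchyme markers, in each library (bars in the order BPA, BPF, BPS, DMSO) at EB days 6 to 20, in RA EBs and in NPCs. The DMSO bars of Igf2, Slc38a4 and the mesenchyme sum are lowest at EB days 12 and 20 and highest in NPCs.

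On the neural branch no imprinted gene was called in RA EBs (2.34% of all genes), and DESeq2 called 2 of the 34. An unadjusted p below 0.05 was reached there by 5 of the 34 and by 2584 of all 15632 genes. The genes with the smallest p were Plagl1 (−0.54, adjusted p = 0.056), Mest (−0.39, adjusted p = 0.071), Asb4 (−0.72), Grb10 (−0.33) and Cdkn1c (−0.25). In NPCs 2 were called (2.25% of all genes), both lower in the bisphenol class. Igf2 held 182 (BPA), 136 (BPF) and 172 (BPS) against 309 (DMSO) FPKM, a difference of −0.92 ± 0.19 (adjusted p = 0.0066). Slc38a4 held 12.1, 9.05 and 13.4 against 27.4 FPKM in the same order, a difference of −1.24 ± 0.24 (adjusted p = 0.0028). Both calls were lost without the BPF libraries (−0.83 with adjusted p = 0.18 for Igf2, and −1.12 with adjusted p = 0.11 for Slc38a4). Dlk1 (−0.79, adjusted p = 0.074), H19 (−0.65, adjusted p = 0.084) and Mest (−0.37, adjusted p = 0.1) did not pass. Mesenchyme markers summed to 195, 171 and 200 against 413 FPKM in these libraries, with 5 of 8 lower, and their part in the result was not tested.

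The difference between branches was tested directly with the interaction of class and branch, over the 24 libraries from EB day 6 on, where 8 of the 33 imprinted genes tested were called against 8.79% of all genes (Slc22a18 was not tested). The bisphenol effect on Igf2 was −0.68 on the neural branch and 1.13 on the global branch, an interaction of −1.81 ± 0.31 (adjusted p = 0.0012) that stayed called under every alternative run. Slc38a4 had −0.66 and 0.94 in the same order (−1.60 ± 0.40), Asb4 −0.58 and 0.79 (−1.37 ± 0.26), Zim1 −0.01 and 1.01 (−1.02 ± 0.29), Peg3 −0.03 and 0.90 (−0.93 ± 0.20) and Igf2r −0.09 and 0.74 (−0.83 ± 0.23). Gnas had an interaction of −0.21 ± 0.06 and Snrpn one of 0.46 ± 0.12, the only one of the 8 above 0. The other 7 calls depended on which libraries were used. All 7 were lost without the BPF libraries, with Slc38a4 at −1.48 (adjusted p = 0.11) and Asb4 at −1.25 (adjusted p = 0.0503). Without the BPS libraries 5 were lost (Slc38a4, Zim1, Igf2r, Gnas and Snrpn), and without the NPC libraries 6, Slc38a4 (−0.90, adjusted p = 0.31), Igf2r, Peg3, Zim1, Gnas and Snrpn. Asb4, Gnas and Snrpn were lost without the RA EB libraries, Zim1, Igf2r and Gnas without EB day 12, and Zim1 with limma (adjusted p = 0.055).

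Of 16 genes that establish, maintain or erase imprints, a list taken beside the members, 2 rose and 4 fell at EB day 4 against ESCs, where 14.3% and 13.4% of all genes did (median log2 change −0.04 over the list and 0.00 over all genes). The de novo methyltransferases Dnmt3b (5.06) and Dnmt3a (2.06) rose, and the demethylating enzymes Tet2 (−4.19) and Tet1 (−2.48), the imprint reader Zfp57 (−2.38) and the cofactor Dnmt3l (−1.65) fell. Zfp57 held 76.7 ± 2.51 FPKM in ESCs, 14.8 ± 1.13 at EB day 4 and 9.83 FPKM at EB day 6, then 32.8 FPKM at EB day 20 and 43.7 FPKM in NPCs. In RA EBs against EB day 4 (18.8% and 15.5% of all genes, medians −0.29 and 0.03), Tet2 (2.19) and Tet3 (1.56) rose and Dnmt3l (−6.65), Dnmt3b (−5.65), Dppa3 (−4.88) and Tet1 (−1.32) fell. In NPCs against RA EBs (17.9% and 17.0% of all genes, medians 0.06 and −0.01) 4 rose, led by Zfp57 (2.01), and 3 fell, led by Dnmt3b (−2.46).

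Among 31 tested genes of a second list, other genes reported as imprinted, 7 rose and 4 fell at EB day 4 against ESCs, where 14.3% and 13.4% of all genes did (medians 0.00 and 0.00). Slc22a3 (6.99), Calcr (6.67), Osbpl5 (2.95) and Snurf (2.66) rose most and Ddc (−4.69), Peg12 (−3.58), Sfmbt2 (−1.45) and Tnfrsf23 (−1.29) fell most. At EB day 6 against EB day 4, 6 rose and 4 fell (10.5% and 8.55% of all genes, medians 0.21 and 0.00). At EB day 9 against EB day 6, 5 rose and 1 fell (10.5% and 3.86%, medians 0.38 and 0.03). At EB day 12 against EB day 9, 8 rose and 0 fell (7.33% and 2.26%, medians 0.27 and −0.01). In RA EBs against EB day 4, 8 rose and 7 fell (18.8% and 15.5%, medians 0.46 and 0.03). At EB day 20 against EB day 12, 13 rose and 6 fell (17.4% and 8.62% of all genes, medians 0.10 and 0.00), with Rasgrf1 (3.46), Nap1l5 (3.27), Dcn (2.49) and Zim3 (2.11) highest and Ano1 (−3.42), Peg12 (−2.66), Th (−2.16) and Copg2 (−1.72) lowest. In NPCs against RA EBs, 10 rose and 4 fell (17.9% and 17.0% of all genes, medians 0.06 and −0.01), with Dcn (5.20), Nap1l5 (4.73), Zim3 (4.15) and Peg13 (2.65) against Ddc (−3.40), Ano1 (−2.39), Calcr (−1.97) and Pon3 (−1.30).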

How the data were processed

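Whole-transcriptome RNA of 32 libraries was analysed from 1 gene table per library. The authors deposited an expected count and an FPKM value per gene, per the file headers. The submitters' processing notes name Bowtie2, HISAT and RSEM and the mouse build mm10, without versions. Between 78.8% and 80.6% of the expected counts per library were whole numbers. Strand setting is not given in the sources used here.

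Expected counts were rounded and tested with edgeR 4.0.16 in R 4.3.3 (TMM scaling, factors 0.923 to 1.143, quasi-likelihood test, prior count 1, genes at 1 CPM or more in at least 4 libraries, Benjamini-Hochberg adjustment). Stages and treatments were fitted as additive terms over 32 libraries (21 residual degrees of freedom). Single stages used stage by class (16 residual degrees of freedom), and the branch difference used an interaction over 24 libraries and 15084 genes. FPKM below the listing limit were set to 0. TPM was computed from FPKM as a check of levels. Of all gene identifiers, 20551 matched RefSeq, whose GRCm38.p6 tables gave coordinates and promoters. The fits were tested on simulated data.

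The members, marker lists and other lists were chosen with earlier results of these data known. Stage values are printed for members reaching 10 FPKM in a stage mean. Each comparison names up to 12 called genes per direction, or the 5 with the smallest p where fewer than 5 were called. Where at least 5 were called, only the first 12 per direction were followed individually under the alternatives. Genes under 1 FPKM in every stage mean compared were left out there. Alternatives were DESeq2 1.42.0, limma 3.58.1 on log2(FPKM + 1), upper-quartile scaling, other filters, no treatment term and leaving out treatments or stages.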

Additional observations from a re-analysis of the deposited data

Results flagged for a closer look

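In 150 groups of 4 libraries of a stage (genes with a stage mean of 10 FPKM or more), 8 held a library that stood apart from the other 3, and chance alone flags about 1 in 20 such groups. The library apart was the DMSO library in 5 of the 8, the BPS library in 2 and the BPF library in 1. Igf2r in the DMSO library measured 14.25 FPKM at EB day 4, with 9.19 to 9.58 in the bisphenol libraries, and 8.48 FPKM at EB day 6, with 11.4 to 11.85 in the bisphenol libraries. Meg3 measured 32.72 FPKM in the DMSO library of EB day 12, with 8.0 to 11.23 in the others. Plagl1 measured 99.32 FPKM in the DMSO library of RA EBs, with 64.71 to 67.5 in the others. Inpp5f measured 11.77 FPKM in the DMSO library of EB day 6, with 12.41 to 12.5 in the others. Nnat measured 454.71 FPKM in the BPF library of RA EBs, with 492.71 to 496.4 in the others. Ube3a measured 11.96 FPKM in the BPS library of EB day 20, with 14.56 to 15.02 in the others. Slc38a4 measured 16.09 FPKM in the BPS library of EB day 4, with 18.08 to 18.45 in the others.

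The effect of the bisphenol class differed between the neural and the global branch by the interaction test for 8 genes. The difference, neural minus global on the log2 scale, was −1.81 for Igf2, −1.60 for Slc38a4, −1.37 for Asb4, −1.02 for Zim1, −0.93 for Peg3, −0.83 for Igf2r, −0.21 for Gnas and 0.46 for Snrpn. Igf2 was the 1 gene called under every alternative run, while 7 of the 8 calls were lost without the BPF libraries, 5 without the BPS libraries and 6 without the NPC libraries. None of these runs left out the DMSO libraries of EB days 12 and 20 together. Within a stage, the summed mesenchyme level of the DMSO library was the lowest at EB days 9, 12 and 20 and the highest at EB day 6 (53.8 to 72.7 FPKM with bisphenols, 122 FPKM with DMSO), in RA EBs (16.6 to 21.0 FPKM with bisphenols, 22.9 FPKM with DMSO) and in NPCs. Its part in these differences was not tested.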

How the results depend on the processing

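Of 2142 values of named genes under the alternatives, 1985 kept their direction and side of the threshold, 128 kept their direction and lost the call, 25 gained one, 3 untested values moved beyond their spread and 1 reversed. The reversal was Meg3 in NPCs against EB days 9 and 12, which was −0.0081 with limma on log2(FPKM + 1). The deposited length of Meg3, which scales FPKM but not expected counts, was 5847 to 7033 bases in NPCs. At EB days 9 and 12 it was 3030 to 3900 bases. The part of length in the reversal was not tested. With limma, the number of genes lower was 1 at EB day 6 against EB day 4, 1 at EB day 9 against EB day 6, 2 in RA EBs against EB day 4, 2 in RA EBs against EB days 6 and 9, and 7 in NPCs against EB days 9 and 12; low genes are compressed by the pseudocount. For EB day 9 against EB day 6 it was 1 with no filter and 1 with the minimum set at 5 CPM, and for RA EBs against EB days 6 and 9 it was 3 at 5 CPM, where fewer genes were tested. For the bisphenol class the number called over stages was 0 with DESeq2 and 0 with limma. With DESeq2 1 gene was called at EB day 4, 4 at EB day 9 and 2 in RA EBs, and with no filter 4 in NPCs; the cause was not tested.

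Leaving out 1 treatment gave 1 to 3 genes lower at EB day 6, 0 to 3 at EB day 9 and 0 to 3 at EB day 12, each against the stage before. Leaving out 1 stage gave 0 to 2 genes called for BPF, 0 to 2 for BPS and 0 to 2 for the class. At single stages, leaving out 1 bisphenol gave 0 to 2 genes at EB day 4, 2 to 6 at EB day 6, 2 to 10 at EB day 9, 8 to 21 at EB day 12, 6 to 13 at EB day 20, 0 to 4 in RA EBs and 0 to 6 in NPCs. The interaction gave 1 to 9 genes. The fits between stages compare libraries within treatments. Without the treatment term, 2 calls were lost, both of Meg3 (−0.99 in RA EBs against EB day 4 and 0.96 in NPCs against EB days 9 and 12). The labels give no replicate numbers to pair by. Depth limits genes under 1 FPKM, such as Rtl1, Slc22a18 and Ascl2.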
